A study of Mus musculus with 2 samples.

Results

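Chromosome 14 carried 428 of the 4117 Flag-USP21 peaks in the deposited list of this chromatin immunoprecipitation (ChIP) sequencing experiment. They are the peaks chosen by 1 criterion, a chromosome entry of chr14, and chromosome 14 was singled out because it held many peaks, so the number of peaks and their position are given as a description. The study used E14 cells, a mouse embryonic stem cell (mESC) line grown without feeder cells in serum medium with leukaemia inhibitory factor. There were 2 libraries, 1 from cells expressing Flag-tagged USP21, made with an anti-Flag antibody, and 1 input library made with no antibody. A peak list of the Flag library was analysed, and no file of the input was analysed here. The methods describe Flag-USP21 lines grown from single colonies after insertion of the gene at the Rosa26 locus, which adds tagged USP21 to the cells' own, and the labels do not say which line was sequenced. With 1 library per group there is no replicate error and no test between samples. All intervals below are 95% intervals that cover counting error, or the spread over peaks, in this 1 list.

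USP21 is a deubiquitinase, an enzyme that takes ubiquitin off other proteins. It is not known to bind DNA by sequence, and the study asked whether Nanog brings it to chromatin. Its known substrates include histone H2A, whose monoubiquitinated form is laid down by Polycomb complexes at repressed genes, and, in mESCs, the pluripotency factor Nanog. A ChIP peak marks a place where sequenced fragments, called tags, are more frequent than a local background mean. A peak with few tags over a low mean and one with many tags over a high mean can receive the same score.

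Each peak carried the authors' score, which in the layout of the MACS14 peak caller is 10 times the negative log10 of a Poisson p-value. The lowest score in the list, 40, stands for a p-value of 0.0001. Positions are those of the list, which the submitters' processing notes assign to mm9. The last peak on chromosome 14 ended at 125142600, which lies 240356 bp past the end of this chromosome in GRCm38 (124902244 bp). The genome used here was GRCm38, so no base sequence, gene or promoter was assigned to these peaks.

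The peaks spread unevenly along the chromosome. The first lay at chr14:3044344-3044522 (score 41.47) and the last at chr14:125142484-125142600 (score 51.45). The 37 Mb that begin at 79 Mb, which earlier work on this list had picked out for their density, held 315 peaks. The remaining 86 Mb, 76 Mb before and 10 Mb after this stretch, held 113. These counts give 8.51 and 1.31 peaks per Mb, a ratio of 6.48. These 37 Mb are called the dense interval below. A scan of 1 Mb bins for the stretch with the highest likelihood ratio gave these ends, so the density ratios that follow are descriptions, and the intervals printed with 2 of them take the ends as given.

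**Figure D1:**
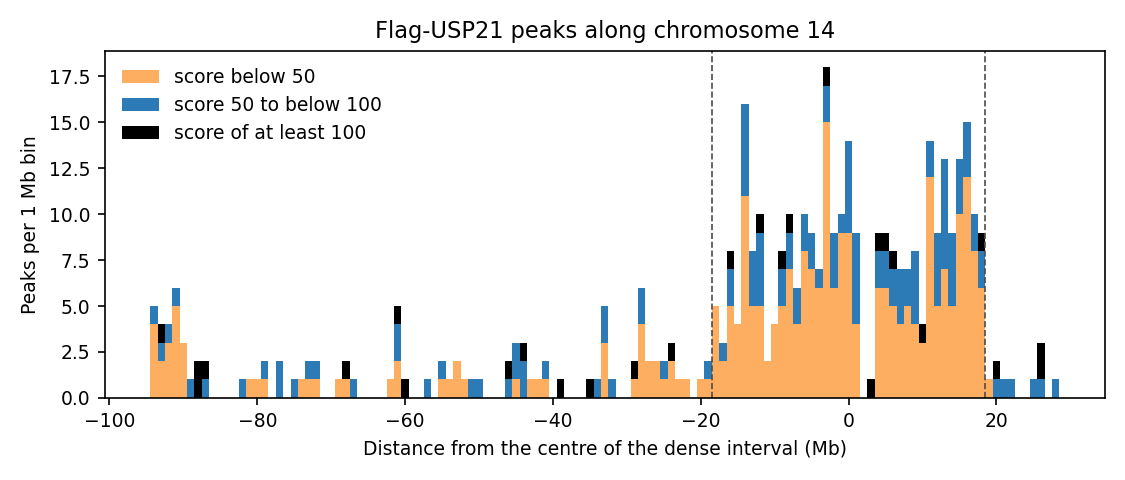
Peaks per 1 Mb bin along chromosome 14, stacked by score, against the distance in Mb from the centre of the dense interval, whose ends are the dashed lines. Bins of the interval hold up to 18 peaks and those elsewhere at most 6, and most of the peaks in the interval score below 50.

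Within the dense interval, the 37 bins of 1 Mb held a median of 9 peaks and a range of 0 to 18. Outside it, the 86 bins held a median of 1 peak and at most 6, and 28 of them were empty. Thus, 28 of the 37 bins inside were fuller than any bin outside, whereas 9 were not. The 3 fullest bins were 94 to 95 Mb with 18 peaks, 83 to 84 Mb with 16 and 113 to 114 Mb with 15. Of these 49 peaks, 38 scored below 50 and 1 scored at least 100.

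The interval began gradually and ended abruptly. At its start, the bins from 77 to 84 Mb held 1, 2, 5, 3, 8, 4 and 16 peaks in order. The last peak before 79 Mb was chr14:78947704-78947840 (137 bp, score 41.91) and the first after it chr14:79462267-79462407 (141 bp, score 45.45). At its far end, the bins from 114 to 119 Mb held 10, 9, 1, 2 and 1 peaks. The last peak inside was chr14:115876100-115876213 (114 bp, score 52.26), and the next, chr14:116505646-116505806 (161 bp, score 41.72), followed after 629 kb. Of these 4 peaks, 3 scored below the list's median of 51.24. The interval was also interrupted. Between chr14:98842949-98843087 (score 42.91) and chr14:100968780-100968877 (score 111.22) no peak was found over 2.13 Mb, which was the only gap above 1 Mb among the 314 gaps inside.

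A second, smaller group lay at the proximal end. The 5 Mb from 3 to 8 Mb held 22 peaks (4.40 per Mb), against 81 peaks (1.14 per Mb) between 8 and 79 Mb. Of these 22, 17 scored below 50 (77.3%, 54.6 to 92.2%). Between 8 and 79 Mb, this share was 48.1% (36.9 to 59.5%). The borders of this group were set after its bins had been seen, so its density and shares are a description.

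Next, the scores were compared along the chromosome. In the whole list, 47% of the peaks scored below 50 and 13.3% at least 100. On chromosome 14, 278 peaks (65.0%, 60.2 to 69.5%) scored below 50, the highest share of the 21 chromosomes, and 27 (6.31%, 4.20 to 9.05%) scored at least 100. The median score was 46.15 (45.13 to 47.09), the lowest of the 21 chromosomes. The medians of chromosome 1, 47 (45.99 to 47.89), and chromosome 8, 47.205 (46.14 to 49.33), had overlapping intervals. Their shares below 50, 63.3% (59.0 to 67.5%) and 58.6% (52.6 to 64.5%), also overlapped that of chromosome 14. Inside the dense interval, 221 of 315 peaks scored below 50 (70.2%, 64.8 to 75.2%), against 57 of 113 outside it (50.4%, 40.9 to 60.0%). The 2 intervals do not overlap. At least 100 was reached by 11 peaks inside (3.49%, 1.76 to 6.16%) and 16 outside (14.2%, 8.32 to 22.0%). The median score was 45.37 (44.79 to 46.54) inside and 49.97 (46.34 to 55.14) outside, where the intervals just meet. Along the interval, the share of weak peaks ranged from 63.0% between 99 and 104 Mb to 76.2% between 89 and 94 Mb in stretches of 5 Mb. Distal to the interval, 1 of 10 peaks scored below 50 and 3 scored at least 100.

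Of the 3 score classes, weak peaks had the highest density ratio. Weak peaks (below 50) numbered 5.97 per Mb inside and 0.663 outside, a ratio of 9.01. Peaks of 50 to below 100 numbered 2.24 and 0.465 per Mb (83 and 40 peaks), a ratio of 4.82. For peaks of at least 100 the ratio was 1.60, and its interval of 0.671 to 3.67 includes 1. With 27 strong peaks, and ends set from the positions of all peaks, no conclusion is drawn on a difference in their density.

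The strongest peaks are given one by one, since their scores stand for the lowest Poisson p-values. Of the 10 highest-scoring peaks on chromosome 14, 6 lay in the dense interval. This interval held 315 of all 428 peaks of the chromosome and 11 of the 27 that scored at least 100. The highest was chr14:103863481-103864147, with a width of 667 bp and a score of 951.69. The second, outside the interval near the proximal end, was chr14:9439048-9439237 (190 bp, score 633.79). They were far above the rest: the third, chr14:101147938-101148368 (431 bp), scored 358.23, and the fourth, chr14:85696504-85696819 (316 bp), scored 343.16. The fifth and seventh were narrow peaks outside the interval, chr14:37669138-37669204 (67 bp, score 303.6) and chr14:53770106-53770180 (75 bp, score 266.37). Between them ranked chr14:88724560-88724719 in the interval (160 bp, score 269.04). The last 3 had nearly equal scores. These were chr14:73257521-73257694 outside the interval (174 bp, 207.68), chr14:107685873-107686043 (171 bp, 203.23) and chr14:115607002-115607652 (651 bp, 202.36). High scores thus occurred in peaks of 67 to 667 bp.

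Next, peak width was compared. The median width was 154 bp (150 to 158 bp) inside and 144 bp (137 to 150 bp) outside, with a median of 145 bp in the list. A width of at least 200 bp, a limit set with the widths known, was found for 9.18% of the list. Inside the interval 60 of 315 peaks were this wide (19.0%, 14.9 to 23.8%) and outside it 10 of 113 (8.85%, 4.33 to 15.7%), so that the intervals overlap slightly. Without the last 2 Mb of the interval, described below, the share inside was 15.2%. With 2 Mb at each end counted as outside, the order turned, to 15.3% inside and 18.6% outside. Narrow peaks, below 100 bp, were less frequent inside, where they numbered 11 (3.49%, 1.76 to 6.16%), than outside, where they numbered 14 (12.4%, 6.94 to 19.9%), and these intervals do not overlap. In the whole list 12.8% of the peaks were this narrow (11.8 to 13.9%), close to the share outside. All 12 peaks of at least 300 bp lay inside, as did 315 of the 428 peaks of any width. Several of them lay in the last 2 Mb, and their share in the whole list was not computed. The 3 widest were the peaks of 667, 651 and 431 bp named above. The narrowest were chr14:94535103-94535165 (63 bp, score 132.37) in the interval, and chr14:36242261-36242325 (65 bp, score 135.54) and chr14:56312836-56312901 (66 bp, score 98.94) outside it. All 3 narrowest peaks scored well above the median.

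**Figure D2:**
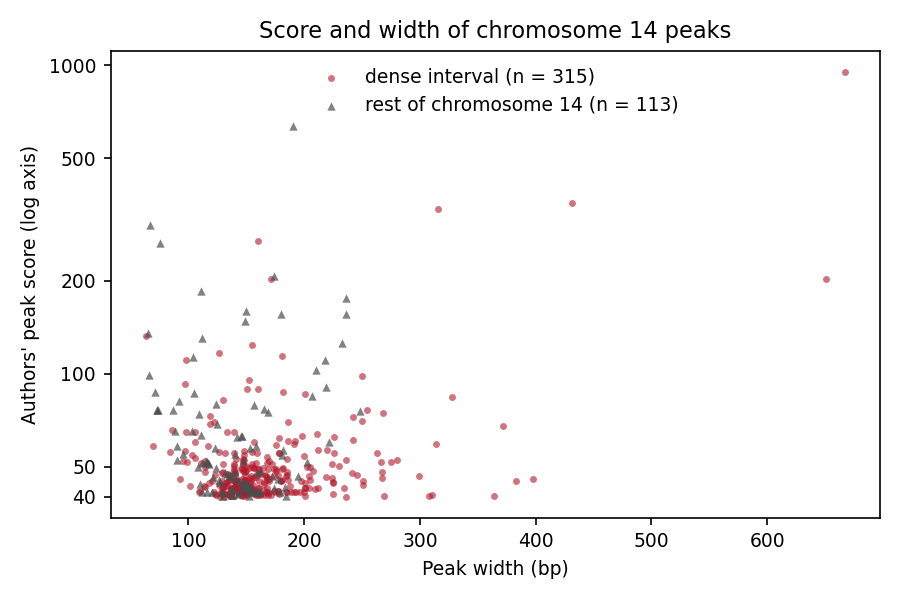
Score (log axis) against width in bp for each of the 428 chromosome 14 peaks, with circles for the 315 peaks of the dense interval and triangles for the 113 others. Weak peaks wider than 200 bp are all circles, and the 3 widest peaks score between 202.36 and 951.69.

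Wide peaks occurred at all scores in the interval. They were 33 of its 221 weak peaks (14.9%, 10.5 to 20.3%) and 23 of its 83 peaks of 50 to below 100 (27.7%, 18.4 to 38.6%). These counts include the last 2 Mb of the interval, described below, where 15 of 19 peaks were this wide. Outside the interval, 0 of 57 weak peaks were this wide (0 to 6.27%), and among weak peaks of the whole list the share was 5.74% (4.74 to 6.87%), inside that range. Of the 40 peaks of 50 to below 100 outside, 5 were this wide (12.5%, 4.19 to 26.8%). In the whole list this share was 9.17% (7.81 to 10.7%). Among strong peaks, 4 of 11 inside and 5 of 16 outside were at least 200 bp wide, against 21.4% in the whole list (18.0 to 25.1%). Across the 315 peaks of the interval, Spearman's rho between score and width was 0.10, and across the 113 others −0.12. Both values describe peaks of 1 library and are weak.

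Wide peaks also had their own position. The last 3 bins of the interval held 15, 10 and 9 peaks in order of position, of which 5, 7 and 8 were at least 200 bp wide. In the last 2 Mb before the abrupt end of the interval, 15 of 19 peaks were this wide (78.9%, 54.4 to 93.9%), and their median width was 241 bp (201 to 314 bp). In the 35 Mb before it, the share was 15.2% (11.3 to 19.8%, 45 of 296 peaks) and the median 151.5 bp (149 to 156 bp). The median score was 44.98 (40.76 to 50.41) in the last 2 Mb and 45.395 in the 35 Mb before it. This stretch was noticed in the data, and the difference was not tested.

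**Figure D3:**
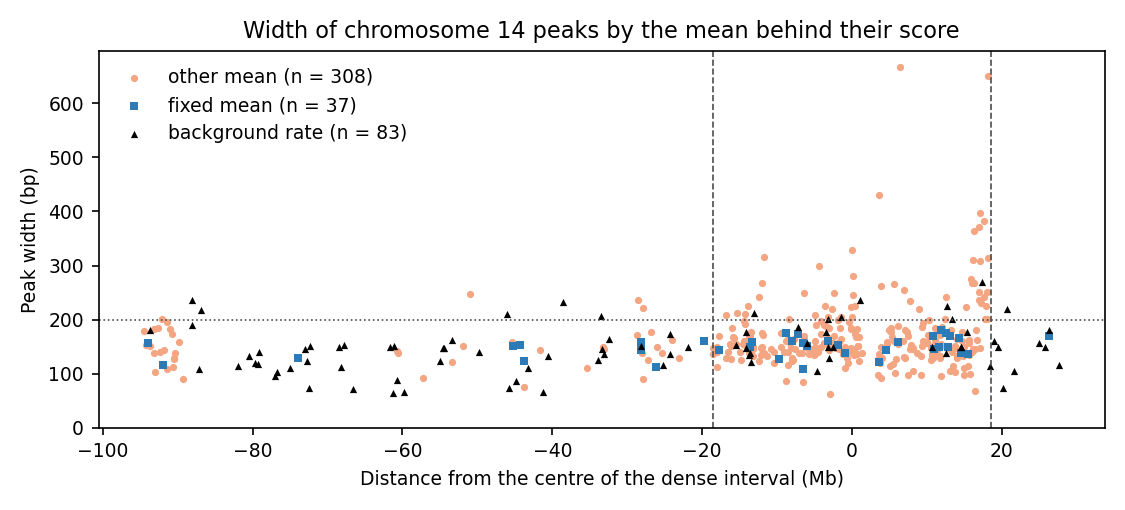
Width in bp of each chromosome 14 peak against the distance in Mb from the centre of the dense interval (dashed lines mark its ends, the dotted line 200 bp), with symbols for the mean behind the score. The widest group of peaks stands just inside the right-hand end of the interval, and peaks at the background rate occur both inside and outside it.

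Because the list gives no tag counts, the means behind the scores were examined. A score that is a Poisson p-value can take only certain values for a given mean, 1 for each number of tags. Over the whole list the largest number of scores fell on such values at 8.13 tags per kb, multiplied by the width of the peak, with narrower peaks taken as 104 bp wide. This is called the background rate. In the whole list, 53.7% of the peaks (52.2 to 55.2%) had a score within 0.015 of a tail at this rate. On chromosome 14, 83 peaks did (19.4%, 15.8 to 23.5%), the lowest share of the 21 chromosomes. On chromosome Y, 4 of 18 peaks did (22.2%, 6.41 to 47.6%), and the 2 ranges overlap. At 70 other rates between 5 and 12 tags per kb, at most 6 of the 428 peaks of chromosome 14 did. A further 37 peaks, with widths of 109 to 181 bp, lay on tails of 1 mean of 1.70 tags that was not multiplied by the width. The other 308 were scored against means that were not recovered. A peak is placed in these groups by its score and width, and the deposited list does not state the means.

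Peaks at the background rate had similar densities in the interval and the rest, given ends that were set from the positions of all peaks. They numbered 26 inside, or 0.703 per Mb, and 57 outside, or 0.663 per Mb, a ratio of 1.06 (0.640 to 1.71). In contrast, peaks with other means numbered 7.11 per Mb inside (263 peaks) and 0.523 outside (45 peaks), a ratio of 13.6. Peaks on the fixed mean numbered 0.703 and 0.128 per Mb (26 and 11 peaks), a ratio of 5.49. Of the 315 peaks of the interval, 289 were scored against means other than the background rate. Because a higher mean lowers the score of a given number of tags, these groups and the scores are not independent of each other.

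The groups followed the position along the chromosome. Background-rate peaks made up 8.25% of the interval (5.46 to 11.9%) and 50.4% of the rest (40.9 to 60.0%). The share outside was close to the 53.7% of the whole list (52.2 to 55.2%). In the proximal group from 3 to 8 Mb they were 1 of 22 peaks, whereas between 8 and 79 Mb they were 47 of 81 (58.0%, 46.5 to 68.9%). Distal to the interval they were 9 of 10. In the 5 Mb from 99 to 104 Mb, which hold the highest-scoring peak, 0 of 27 peaks were at the background rate. All 11 strong peaks inside the interval had other means, while 12 of the 16 outside lay on the background rate. In the whole list, 64.2% of strong peaks were at this rate (60.0 to 68.2%). The strong peaks of the interval thus were scored against means other than the low one that applied to most strong peaks elsewhere on the chromosome.

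For background-rate peaks the tag number can be read from the score. The median tail was beyond 8 tags inside the interval (range 7 to 13) and beyond 9 outside it (range 6 to 54). A tail beyond 7 tags was found for 10 of the 26 peaks inside, 22 of the 57 outside and 928 of the 2211 in the whole list. Beyond more than 13 tags lay 0 of 26 inside, 13 of 57 outside and 304 of 2211 in the whole list. The highest on chromosome 14 was the 190-bp peak at 9.44 Mb, with a tail beyond 54 tags. The 67-bp peak at 37.7 Mb followed with 26 tags and the 174-bp peak at 73.3 Mb with 23. Most of the peaks read in this way rested on few tags, so single positions among them are uncertain.

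Spacing was examined next. Neighbouring peaks in the dense interval were separated by a median of 71.4 kb (58.3 to 85.7 kb), with quartiles of 24.1 and 148 kb. Between 3 and 79 Mb the median was 377 kb (229 to 472 kb), and 23 of 102 gaps exceeded 1 Mb. The longest gaps on the chromosome were 4.95 Mb before chr14:35790340-35790489, 4.92 Mb before chr14:15506716-15506830 and 3.86 Mb before chr14:28996070-28996219. All 6 peaks that border them were at the background rate, with scores from 43.64 to 110.52.

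**Figure D4:**
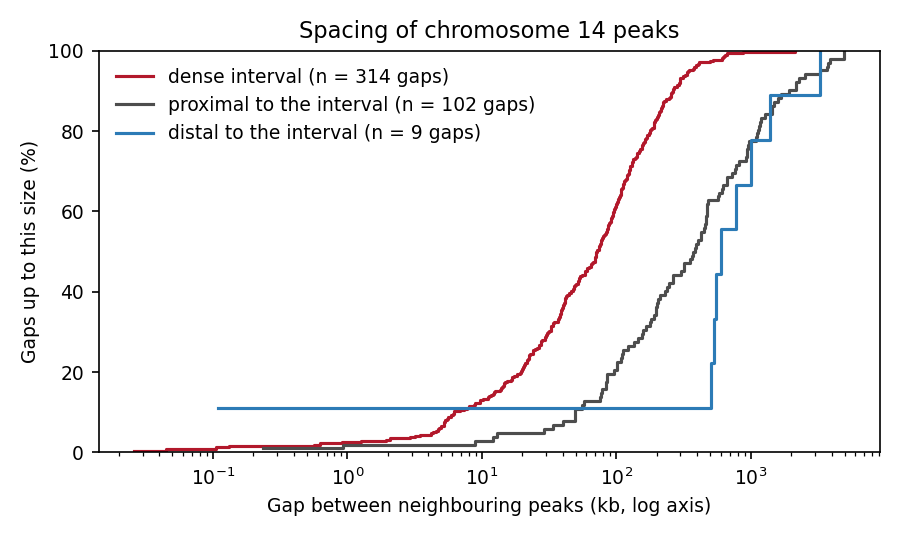
Share of gaps between neighbouring peaks (%) up to a given size (kb, log axis) in the dense interval and on either side of it. The curve of the interval lies to the left, with a median of 71.4 kb against 377 kb on the proximal side.

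Within 10 kb of another peak, measured between midpoints, lay 86 of the 428 peaks (20.1%, 16.4 to 24.2%), against 8.82% of the whole list. The ranges of chromosomes X (14.4%, 9.34 to 20.8%) and Y (22.2%, 6.41 to 47.6%), among others, overlap that of chromosome 14. On chromosome 14, the share was 24.8% (20.1 to 29.9%) inside the interval and 7.08% (3.11 to 13.5%) outside it. A denser region holds more near neighbours by construction, and no comparison with other placements was made. The 86 peaks formed 41 clusters, 37 pairs and 4 triplets. All 4 triplets were in the interval, at chr14:79462267-79468506, chr14:83724324-83730021, chr14:92606316-92622698 and chr14:97309720-97324917. They held no peak above a score of 54.38.

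Some pairs were almost continuous. The closest were chr14:103672073-103672227 and chr14:103672254-103672441, with 26 bp between them and scores of 42.21 and 43.25. Next came chr14:106939366-106939525 and chr14:106939571-106939763 (45 bp apart, scores 42.73 and 41.47), and chr14:83729661-83729828 and chr14:83729874-83730021 (45 bp apart, scores 45.37 and 49). On the chromosome, 6 of 427 gaps were under 200 bp, 5 of them among the 314 gaps inside the interval.

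Finally, the chromosome 14 interval was compared with the stretches that the same scan gave on chromosomes 6 and X, and with chromosome 1. Stretches of other chromosomes were not compared. Of these, the closest in density was on chromosome X, at 119 to 124 Mb, with 48 peaks (9.60 per Mb). This stretch had the shortest length that the scan allowed. There, 66.7% of the peaks scored below 50 (51.6 to 79.6%) and 4.17% were at the background rate (0.509 to 14.3%), and both intervals overlap those of chromosome 14. Wide peaks were more frequent on X, at 39.6% (25.8 to 54.7%) against 19.0% (14.9 to 23.8%), without overlap of the intervals. Peaks within 10 kb of another made up 43.75% of the X stretch (29.5 to 58.8%), against 24.8% (20.1 to 29.9%) in the chromosome 14 interval. The median gap in the X stretch was 41.8 kb (17.4 to 87.3 kb), against 71.4 kb (58.3 to 85.7 kb). The interval of chromosome 6, at 102 to 149 Mb, held 3.51 peaks per Mb, of which 58.2% were weak (50.3 to 65.8%), and this range overlaps that of chromosome 14. Its share of wide peaks was 9.09% (5.18 to 14.6%) and that of background-rate peaks 30.9% (24.0 to 38.6%), and neither range overlaps that of chromosome 14. Chromosome 1, with 510 peaks, had 63.3% weak peaks (59.0 to 67.5%), 7.65% wide peaks (5.49 to 10.3%) and 43.9% background-rate peaks (39.6 to 48.4%). These stretches had been picked for their density or peak number too, and no test between them was made.

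**Figure D5:**
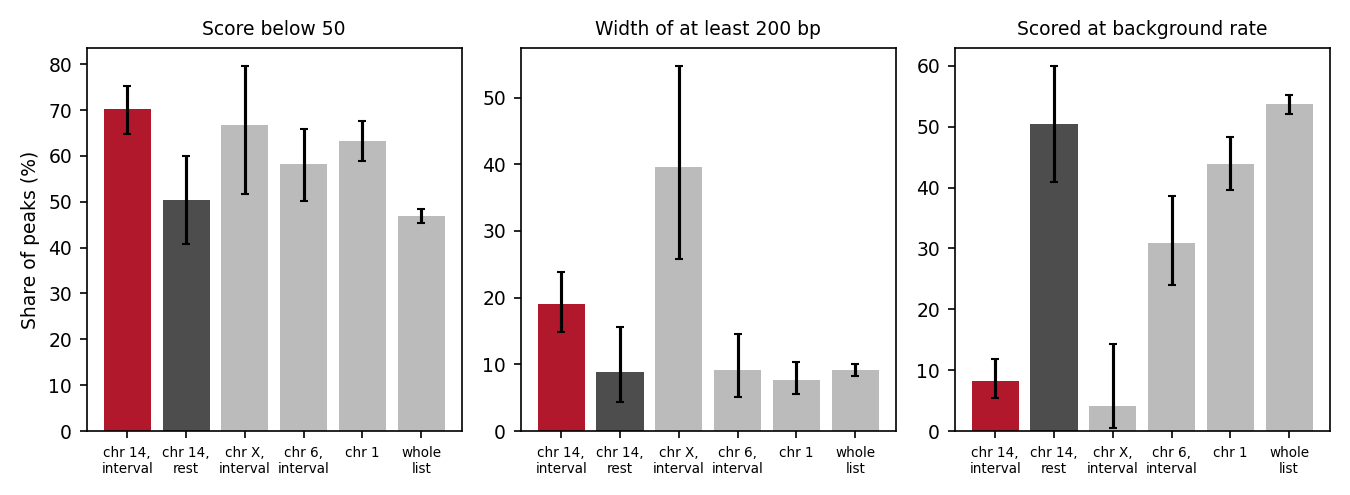
Share of peaks (%) with a score below 50, with a width of at least 200 bp and with a score at the background rate, in the dense interval of chromosome 14, the rest of the chromosome, 3 comparison stretches and the whole list. Error bars are exact 95% intervals, and the dense intervals of chromosomes 14 and X share a low proportion of background-rate peaks (8.25% and 4.17%).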

How the data were processed

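ChIP DNA of E14 cells was sequenced from size fractions of 100 to 300 bp. The authors deposited 1 peak list with a score per peak, which is their peak caller's value and not a tag count. The processing notes name CASAVA 1.4, Bowtie 0.12.7 and mm9. The methods name mm10, MACS version 2 in broad mode and an IgG control, whereas the identifiers of the list are those of MACS14. Its control is not given in the sources used here. Tag depth is unknown.

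Starts were converted from 0-based to 1-based positions. Peaks were placed by their midpoints. Shares were given with exact Clopper-Pearson intervals, medians with order-statistic intervals and density ratios with conditional binomial intervals. The background rate was the rate and smallest window with the most scores within 0.015 of a Poisson tail. The functions were tested on simulated data. The work was done with scipy 1.17.1, numpy 2.4.6 and pandas 2.3.3 in Python 3.11.15, and drawn with matplotlib 3.10.9.

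The peaks, the interval from 79 to 116 Mb and all limits were chosen with earlier results of these data known. The text names the 10 highest-scoring, 3 widest and 3 narrowest peaks, the 3 closest pairs, the peaks at the 3 longest gaps and at the ends of the chromosome and interval, the 3 fullest bins and all clusters of 3. The peaks beside the longest gap inside the interval were added after the values had been seen. Sequences and nearest genes were planned only for a genome of the list's build and were not used here. Score limits, interval ends, cluster distances and the matching tolerance were varied.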

Additional observations from a re-analysis of the deposited data

How the results depend on the processing

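Of 41 alternatives tried for 12 values, 25 stayed within the 95% interval of the value and 16 left it, with 0 reversals of the density ratio. The density ratio of 6.48 was 3.90 at scores of at least 50, 1.60 at scores of at least 100 and 9.01 below 50. It was 5.61 and 6.0 with the interval narrowed or widened by 2 Mb at each end, and 5.84 with 1 peak per cluster. At scores of at least 50, the median score was 58.43 inside the dense interval and 76.22 outside it, against 45.37 and 49.97 for all peaks. The limit itself raises both medians, and the wider difference between them was not tested. At this limit the median width was 158.5 and 124.5 bp. The share of peaks of at least 200 bp was then 28.7% inside and 17.9% outside, and 0% of the weak peaks outside were this wide. With the interval narrowed by 2 Mb at each end, that share was 18.6% outside and 15.3% inside, opposite in order to the 8.85% and 19.0% reported, because the wide peaks of the last 2 Mb then count as outside. The share of peaks near another was 10.0% within 5 kb, 54.2% within 50 kb and 8.0% at scores of at least 50. The share at the background rate rose to 12.8% inside and 67.9% outside at scores of at least 50. The cause was not tested for the changes with the score limit in width and background rate. The alternatives for peaks of at least 200 bp, and the median width at scores below 50, were chosen after seeing the data. With 1 library and no tag counts, depth could not be examined further. No paired analysis was possible because each group held 1 library.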
